A study of Mus musculus with 8 samples.

Results

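The mitosis genes described here are 45 genes for the mitotic kinases, the spindle, the kinetochore and cytokinesis, listed by name for these roles. Of these, 44 were represented among the 18193 genes measured on the array by a probe set named for a single gene, and Ccnb1 was not analysed here. The arrays came from LSK cells, the lineage-low, Sca1-positive and cKit-high fraction of bone marrow that holds haematopoietic stem cells and their earliest progenitors, sorted by flow cytometry from C57BL/6 mice, and their RNA was amplified before hybridisation. There were 4 arrays from mice heterozygous for Jak2V617F, in which a point mutation makes the cytokine receptor kinase Jak2 active without its ligand, and 4 from wild type mice. Each array is from a separate mouse by its label. The ages of the mice and the way the allele was switched on are not given in the sources used here. The comparison bears on whether the activated kinase altered expression of the cell division programme in the stem and progenitor fraction.

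Mitosis genes are transcribed in a wave late in the cell cycle and are largely silent in cells that have left it. Cyclin and kinase pairs start mitosis, the spindle and kinetochores line up and part the chromosomes, a checkpoint holds the cells until all are attached, and a ubiquitin ligase then destroys the cyclins so that the cell can divide. Most stem cells of adult marrow are known to rest, while their progeny within the LSK fraction divide, so the level of these transcripts in a sorted sample follows the share of cycling cells as well as the amount per cell. In RNA from bulk samples these quantities cannot be told apart.

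The promoters show what many of these genes share besides their role. Genes of this class are known for 2 promoter elements, the cell cycle genes homology region (TTTGAA), bound by the MuvB complexes that repress the genes in resting cells and activate them late in the cycle, and the CCAAT box (CCAAT), bound by the factor NF-Y. RefSeq promoters of assembly GRCm38.p6, each 300 bases long with 250 before the start site and 50 after it, were listed for 36 of the 44 measured genes, which had 40 such promoters. TTTGAA on either strand was present in 30 of the 40, or 75%, against 17.9% of all 32851 promoters. CCAAT on either strand was also present in 30 of the 40, against 37.4% of all promoters, and 25 of the 40, or 62.5%, held both, against 6.95% of all promoters. The promoters of 5 genes that recur in the results are printed here. By the probe sets used, Plk1 lay furthest above wild type and Cdc20 was the gene without overlap. Ccnb2 and Cdk1 are partners in the kinase that starts mitosis, and Mki67 is the usual proliferation marker. The promoters are given on the strand of the gene from 5′ to 3′, with both elements in capitals. The Plk1 promoter lies at chr7:122159185-122159484 (+), that of Cdc20 at chr4:118437294-118437593 (-), that of Ccnb2 at chr9:70421505-70421804 (-), that of Cdk1 at chr10:69352863-69353162 (-) and that of Mki67 at chr7:135716330-135716629 (-).
Plk1: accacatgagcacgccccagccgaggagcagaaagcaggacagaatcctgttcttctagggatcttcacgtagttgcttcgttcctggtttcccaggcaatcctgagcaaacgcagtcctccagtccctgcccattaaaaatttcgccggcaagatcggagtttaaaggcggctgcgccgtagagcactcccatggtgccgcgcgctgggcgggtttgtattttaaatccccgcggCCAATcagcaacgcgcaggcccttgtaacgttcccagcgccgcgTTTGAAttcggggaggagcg
Cdc20: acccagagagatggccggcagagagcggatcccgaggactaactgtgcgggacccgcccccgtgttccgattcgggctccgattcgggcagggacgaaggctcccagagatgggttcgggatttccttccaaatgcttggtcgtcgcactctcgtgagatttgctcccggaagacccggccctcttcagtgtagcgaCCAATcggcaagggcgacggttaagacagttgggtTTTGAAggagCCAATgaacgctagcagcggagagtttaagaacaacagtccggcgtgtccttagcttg
Ccnb2: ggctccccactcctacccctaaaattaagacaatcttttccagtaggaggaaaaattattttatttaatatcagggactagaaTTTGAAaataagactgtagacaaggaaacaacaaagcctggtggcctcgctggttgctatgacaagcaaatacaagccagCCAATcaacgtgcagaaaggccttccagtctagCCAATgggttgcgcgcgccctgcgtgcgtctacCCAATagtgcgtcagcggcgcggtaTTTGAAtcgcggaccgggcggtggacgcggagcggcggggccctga
Cdk1: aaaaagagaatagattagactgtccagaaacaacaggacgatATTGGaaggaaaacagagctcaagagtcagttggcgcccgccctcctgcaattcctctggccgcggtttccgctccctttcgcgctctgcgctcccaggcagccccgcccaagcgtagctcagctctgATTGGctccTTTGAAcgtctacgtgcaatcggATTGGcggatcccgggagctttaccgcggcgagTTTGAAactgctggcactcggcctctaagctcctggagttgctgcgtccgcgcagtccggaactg
Mki67: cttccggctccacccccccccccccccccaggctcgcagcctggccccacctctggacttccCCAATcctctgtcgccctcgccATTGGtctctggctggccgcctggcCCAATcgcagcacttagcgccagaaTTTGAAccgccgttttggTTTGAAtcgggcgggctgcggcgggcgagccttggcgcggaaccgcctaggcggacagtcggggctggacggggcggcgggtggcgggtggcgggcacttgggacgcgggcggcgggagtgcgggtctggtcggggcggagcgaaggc
In Plk1 the TTTGAA began at base 31 of the transcript and in Ccnb2 at base 5, with a further TTTGAA upstream, while the other 3 promoters held it only before the start site. CCAAT occurred 3 times each in Ccnb2, Cdk1 and Mki67, 2 times in Cdc20 and a single time in Plk1, and capitals reading ATTGG are the box on the opposite strand. The 2 elements did not overlap in these 5 promoters, although they did at 1 place in the promoter of Cdca8. In the promoter of Ube2c the overlap at 1 place was between CCAAT boxes on opposite strands. The promoters not listed were those of Ccna2, Aurkb, Incenp, Spc24, Kif20a, Tpx2, Dlgap5 and Foxm1. A match of letters is a description and not a mapped binding site.

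Values are log2 intensities, so that a difference of 1 is a factor of 2, and each difference is mutant minus wild type. The arrays had medians of 7.06 to 7.15, and precision is limited by their number. Kit, a receptor that defined the sort, was at 12.67 ± 0.10 in mutant and 12.64 ± 0.14 in wild type arrays (SD, n = 4 each), whereas Ly6a, which encodes Sca1, was not analysed here. Xist and Y-linked genes read as female in 1 mutant and 2 wild type arrays and as male in the rest. Y-linked genes in the arrays that read as female gave 3.06 to 5.37, and Xist in those that read as male 5.54 to 6.54, which shows where an absent transcript can read. For 43 of the 44 mitosis genes both genotype means were above 6.54, and the exception was Kif15.

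Mutant arrays 2 and 3 lay at opposite ends in the mitosis genes. Mutant array 2 was the lowest of the 4 mutant arrays for 44 of 44 mitosis genes, against 27.2% of all genes, and it was the lowest of all 8 arrays for 25 of them, against 8.92% of all genes. Mutant array 3 was the highest of the 4 mutant arrays for 30 genes (29.4% of all genes) and mutant array 1 for 13. Mutant array 3 was the highest of all 8 arrays for 29 genes, against 16.8% of all genes. The order in which mutant arrays 1 and 3 lay above 4 and 4 lay above 2 was found for 33 of 44 genes, against 7.6% of all genes. Among wild type arrays, array 1 was the lowest for 31 genes (21.8% of all genes) and array 4 the highest for 27 (28.5% of all genes). As a median over the 44 genes, relative to the mean of each gene over 8 arrays, the level was 0.13, -0.22, 0.24 and 0.02 in mutant arrays 1 to 4, against -0.16, -0.0037, -0.06 and 0.07 in wild type arrays 1 to 4. Mutant array 2 and wild type array 1 were thus the low ones and mutant array 3 the highest, and the ranges of the genotypes overlapped. The SD over arrays was larger in mutant than in wild type arrays for 40 of 44 genes, or 90.9%, against 50.7% of all genes, and its median was 0.20 in mutant and 0.12 in wild type arrays, against 0.14 in each genotype over all genes.

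**Figure D1:**
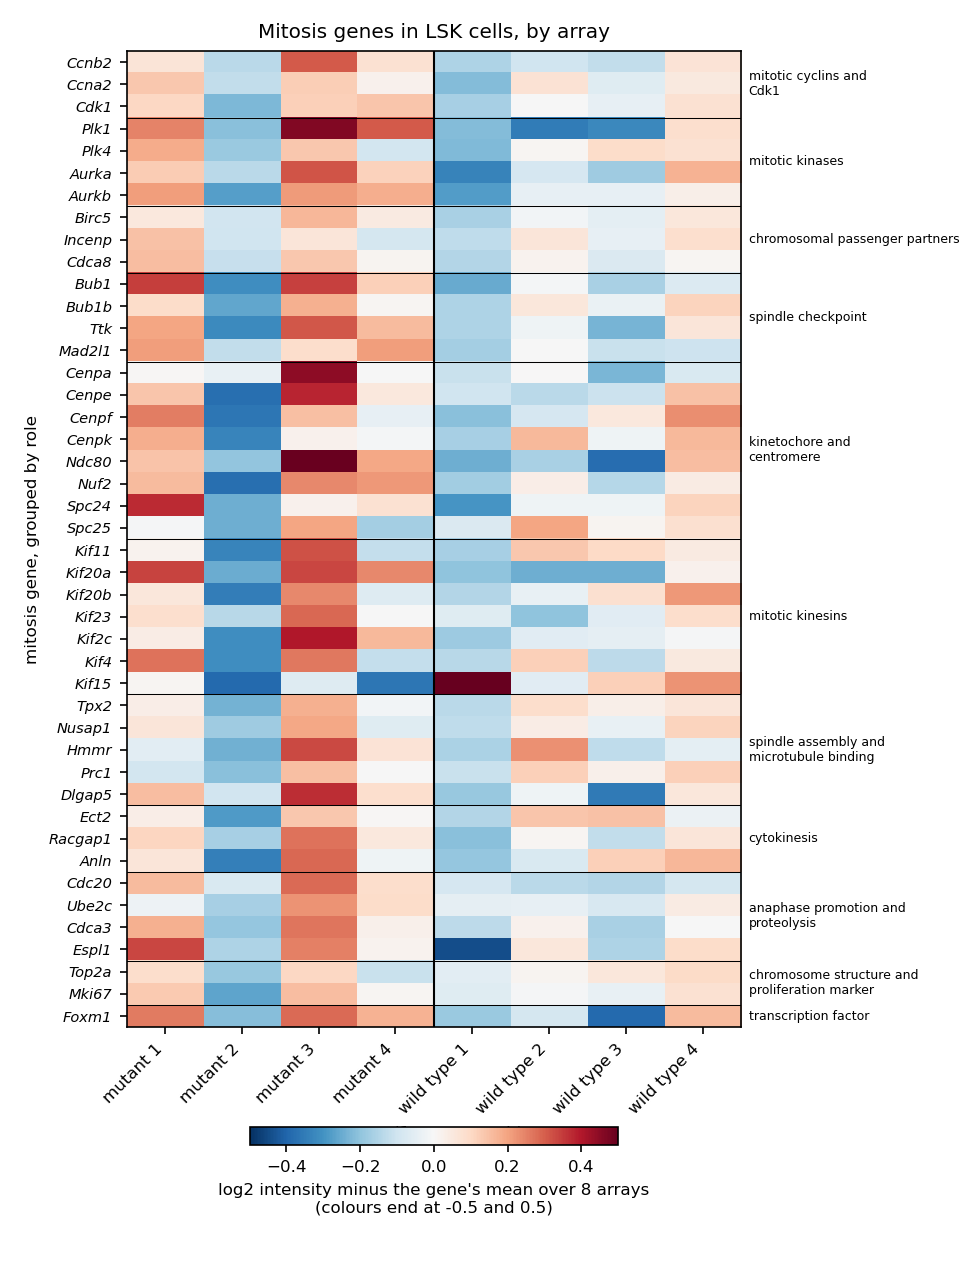
Heat map of the 44 measured mitosis genes (rows, grouped by role) in the 4 mutant and 4 wild type arrays (columns). Colour is the log2 intensity minus the mean of the gene over 8 arrays, with red above and blue below it. The column of mutant array 2 is below the mean in 44 of 44 genes, and wild type array 1 in 43 of 44.

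No mitosis gene passed the test between the genotypes. Limma, a linear model fitted to all 18193 genes at once, gave an adjusted p (Benjamini-Hochberg over all genes) under 0.05 for 0 of 44 mitosis genes, against 0.165% of all genes (19 higher and 11 lower in mutant cells). An unadjusted p under 0.05 was found for 3 mitosis genes higher in mutant cells (Plk1, Kif20a and Cdc20), against 11.9% of all genes, and for 1 lower (Kif15), against 5.23%. The difference was above 0 for 34 of 44, against 62.6% of all genes. After median centring of the arrays it was above 0 for 29 of 44, and the share of all genes was not counted there. The median after centring was 0.07, against 0.04 over all genes. The median difference was 0.09, against 0.05 over all genes. With dim genes left out it was 0.095 over 43 mitosis genes, against 0.015 over all genes kept. Both medians of the list were smaller than the spread of its level between arrays of a genotype (SD 0.15). The 95% interval included 0 for 40 of the 44, and its highest upper bound, that of Plk1, was 0.75, or 1.68-fold. All mutant arrays lay above all wild type arrays for 1 mitosis gene, Cdc20, against 6.82% of all genes, and below them for 0, against 3.33%.

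Counts of higher genes depended on the arrays included. Without mutant array 2 the difference was above 0 for 40 of 44 genes, with a median of 0.16 (0.06 over all genes), 13 genes did not overlap, all higher in mutant cells (11.7% of all genes higher and 5.02% lower), and 15 had an unadjusted limma p under 0.05, all higher (12.7% of all genes higher and 5.14% lower). Still 0 passed the adjusted limma threshold, against 0.0879% of all genes, the smallest adjusted p being 0.101 for Kif20a. Mutant array 2 was the low one for all 44 genes, so leaving it out raises every mutant mean by construction, and these counts describe the other mice without being support for a difference. Without mutant array 3, the array most often highest, 24 of 44 genes were above 0, with a median of 0.04 (0.05 over all genes). Without wild type array 1, the lowest wild type array for most of the genes, 28 of 44 were above 0, with a median of 0.05. The median over all genes was 0.06 there. Among the male arrays alone, 3 mutant and 2 wild type, 21 of 44 were above 0 with a median of -0.0075 (0.06 over all genes). In these 5 arrays the genotypes did not overlap for 2 genes higher in mutant cells, against 24.4% of all genes, and for 6 lower, against 14.2%.

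**Figure D2:**
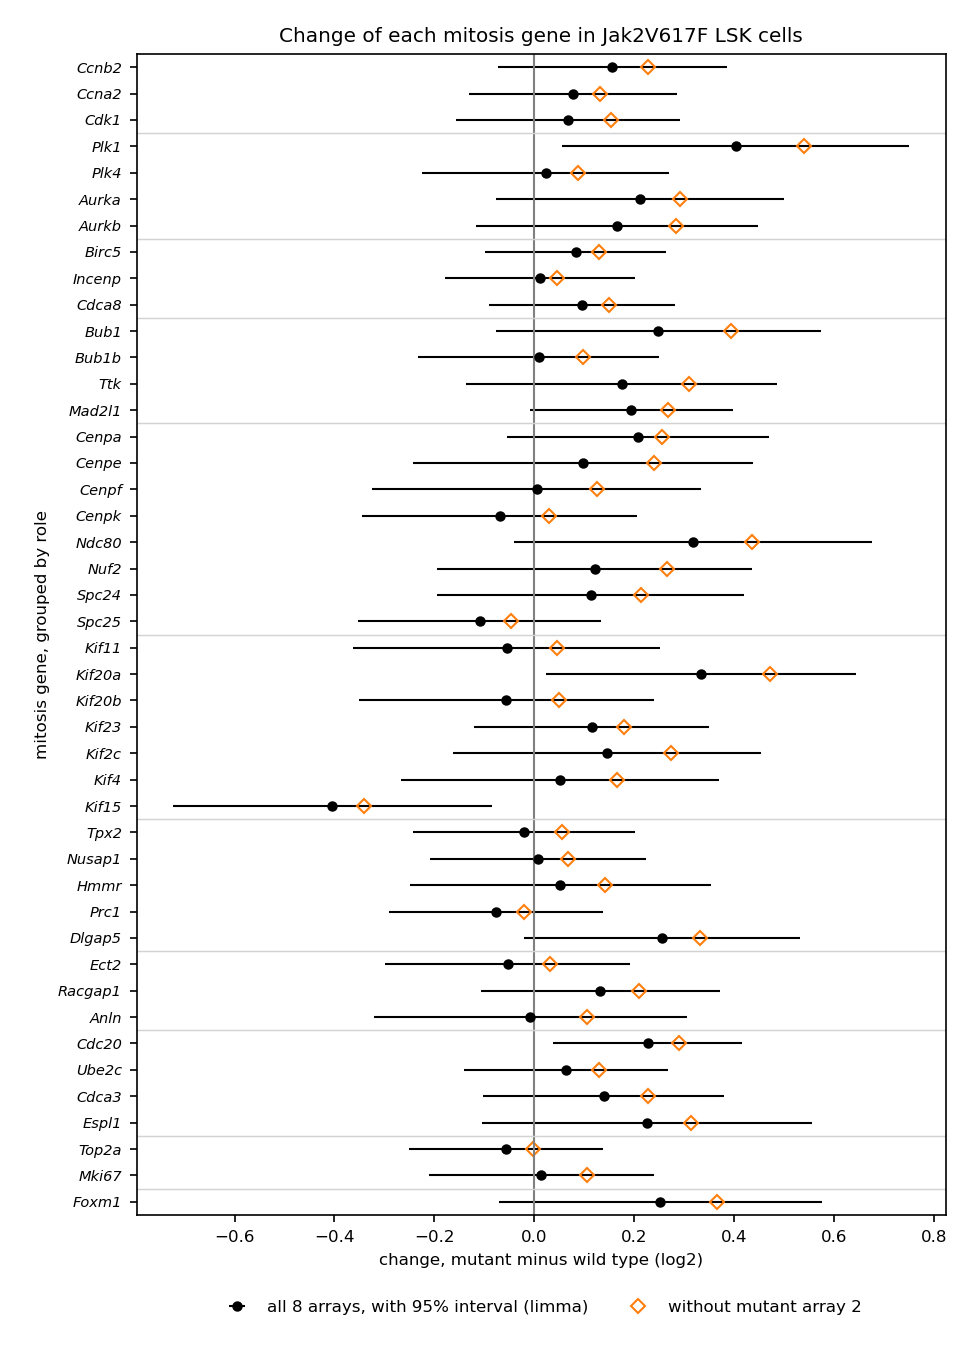
Difference in log2 intensity, mutant minus wild type, for each of the 44 mitosis genes grouped by role. Filled points are all 8 arrays with the 95% interval from limma, which includes 0 for 40 genes, and open diamonds are the differences without mutant array 2, which lie to the right of the filled points for all 44.

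The mitotic cyclins and their kinase showed small differences in the probe sets chosen. All 3 measured members were above 0, with a median of 0.08 and 0 called. Ccnb2, a B-type cyclin, read 12.71, 12.51, 12.95 and 12.72 in the mutant arrays, against 12.49, 12.55, 12.52 and 12.72 in the wild type arrays, with values listed in the order of array number here and below, a difference of 0.16 ± 0.10 (SE; limma adjusted p = 0.444). Ccna2, the cyclin of S phase and mitotic entry, read 12.84, 12.58, 12.82 and 12.73 in the mutant arrays, against 12.49, 12.78, 12.64 and 12.75 in the wild type arrays, a difference of 0.08. A further Ccna2 probe set of similar intensity was at 12.67 in mutant and 12.33 in wild type arrays. Its difference was 0.34, so the size of the Ccna2 difference depends on the probe set. Cdk1, the kinase that B cyclins activate, read 13.24, 12.92, 13.26 and 13.28 in the mutant arrays, against 12.97, 13.14, 13.10 and 13.22 in the wild type arrays, a difference of 0.07 (limma adjusted p = 0.741). For Cdk1, 3 mutant arrays lay close together above all wild type arrays and mutant array 2 lay below them by more than their range, and the groups overlapped in all 3 genes.

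The mitotic kinases held Plk1, the gene with the widest difference above 0 of the 44 in the probe sets chosen. All 4 were above 0, with a median of 0.19, and 0 were called. Plk1, which matures centrosomes and directs cytokinesis, read 11.17, 10.71, 11.38 and 11.22 in the mutant arrays, against 10.70, 10.57, 10.60 and 11.00 in the wild type arrays. Mutant arrays 1, 3 and 4 were above every wild type array and mutant array 2 was within the wild type range. The difference was 0.40 ± 0.15 (SE), or 1.32-fold, with a limma adjusted p of 0.241, and it was 0.54 without mutant array 2 (limma adjusted p = 0.128). Aurka, the Aurora kinase of centrosomes and spindle poles, read 12.05, 11.79, 12.23 and 12.04 in the mutant arrays, against 11.58, 11.84, 11.74 and 12.09 in the wild type arrays, a difference of 0.21 with overlapping groups. Aurkb, the Aurora kinase of centromeres and the midzone, differed by 0.17 and Plk4, which duplicates centrioles, by 0.02.

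The partners of Aurkb in the chromosomal passenger complex lay near 0, with 3 of 3 above it, a median of 0.08 and 0 called. Birc5 (survivin) read 13.78, 13.63, 13.89 and 13.77 in the mutant arrays, against 13.57, 13.72, 13.68 and 13.79 in the wild type arrays, a difference of 0.08. Cdca8 (borealin) read 13.86, 13.59, 13.84 and 13.72 in the mutant arrays, against 13.56, 13.73, 13.63 and 13.72 in the wild type arrays, a difference of 0.10 with overlapping groups in both genes. Incenp, the scaffold of the complex, differed by 0.01.

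The spindle checkpoint genes had 4 of 4 members above 0, a median of 0.18 and 0 called. Mad2l1, which encodes the checkpoint inhibitor Mad2, read 12.47, 12.14, 12.35 and 12.47 in the mutant arrays, against 12.09, 12.26, 12.15 and 12.16 in the wild type arrays. Its mutant arrays lay above the wild type arrays except array 2, and the difference was 0.19 ± 0.090 (SE; limma adjusted p = 0.309). Bub1, a kinetochore kinase, read 12.01, 11.36, 12.01 and 11.79 in the mutant arrays, against 11.42, 11.65, 11.50 and 11.60 in the wild type arrays, a difference of 0.25, or 0.39 without mutant array 2 (limma adjusted p = 0.140). A further Bub1 probe set of lower intensity was at 7.56 in mutant and 8.42 in wild type arrays, a difference of -0.86, so the direction of Bub1 depends on the probe set. Ttk, the kinase that starts checkpoint signalling, differed by 0.17 and Bub1b, the BubR1 arm of the inhibitor, by 0.01.

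Kinetochore and centromere genes were split, with 6 of 8 above 0, a median of 0.11 and 0 called. Ndc80, which gives its name to the complex that grips microtubules, read 11.24, 10.90, 11.60 and 11.30 in the mutant arrays, against 10.86, 10.94, 10.72 and 11.26 in the wild type arrays, a difference of 0.32 ± 0.16 (SE; limma adjusted p = 0.338). Its partners in the complex differed by 0.12 (Nuf2), 0.11 (Spc24) and -0.11 (Spc25), so the 4 subunits did not share a direction. Cenpa, the histone variant that marks centromeres, read 12.05, 12.01, 12.50 and 12.05 in the mutant arrays, against 11.94, 12.05, 11.82 and 11.97 in the wild type arrays, a difference of 0.21 in which mutant array 3 stood apart. The 2 other probe sets of Cenpa differed by -0.06 and -0.22. The kinetochore motor gene Cenpe differed by 0.10, its partner Cenpf by 0.0042 and Cenpk, of the inner centromere network, by -0.07. The 2 other probe sets of Cenpk, of lower intensity, differed by -0.82 and -0.69, so the size of its difference depends on the probe set.

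Mitotic kinesins also went both ways, with 4 of 7 above 0, a median of 0.05 and 0 called. Kif20a, which carries the passenger complex to the midzone, read 12.04, 11.45, 12.03 and 11.94 in the mutant arrays, against 11.50, 11.46, 11.46 and 11.72 in the wild type arrays. The mutant arrays other than array 2 stood above all wild type arrays, and array 2 was the lowest of all 8. The difference was 0.33 ± 0.14 (SE; limma adjusted p = 0.266), and 0.47 without mutant array 2 (limma adjusted p = 0.101). Kif15, a spindle motor that works beside Kif11, read 5.69, 5.29, 5.62 and 5.32 in the mutant arrays, against 6.21, 5.63, 5.80 and 5.91 in the wild type arrays, a difference of -0.40 (limma adjusted p = 0.221) at values up to 6.21, within the range that absent transcripts gave. The other kinesins were Kif2c, which shortens microtubules (0.15), Kif23 of the midzone (0.11), the chromosome motor Kif4 (0.05), Kif11, which drives the poles apart (-0.06), and Kif20b (-0.06). A further Kif20b probe set of similar intensity was at 10.43 in mutant and 10.77 in wild type arrays, a difference of -0.34. A further Kif2c probe set was at 10.08 in mutant and 9.65 in wild type arrays, a difference of 0.43. The dimmer probe sets of Kif2c differed by 0.08 and -0.14, so its difference depends on the probe set.

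**Figure D3:**
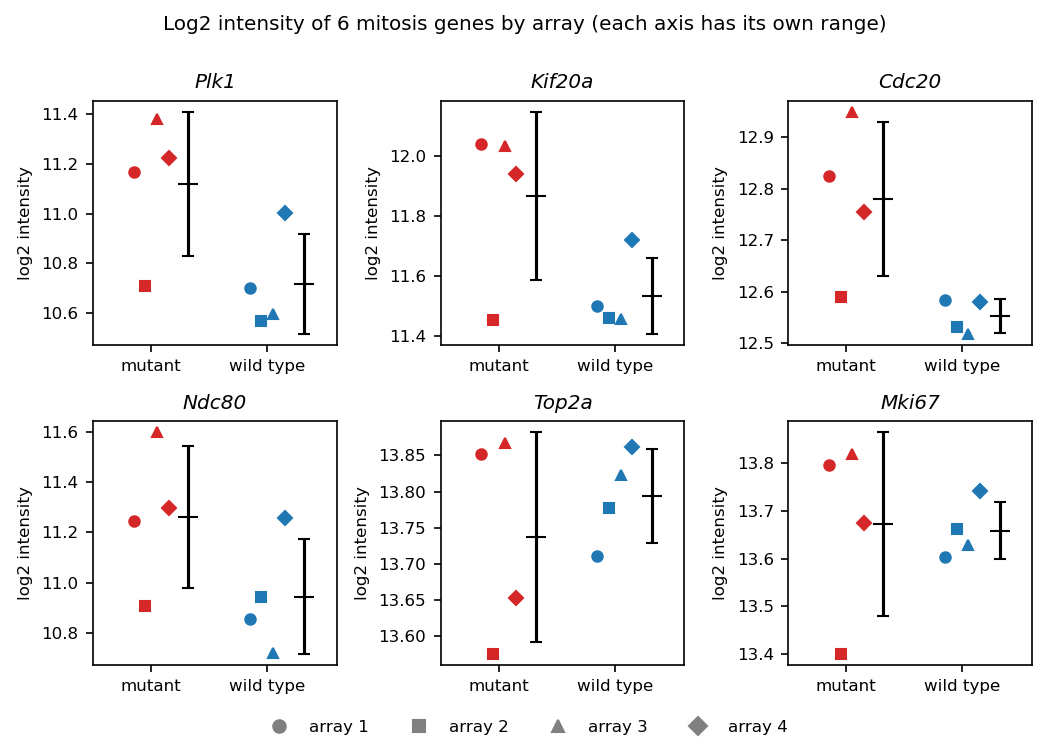
Log2 intensity of Plk1, Kif20a, Cdc20, Ndc80, Top2a and Mki67 in 4 mutant arrays (red, left) and 4 wild type arrays (blue, right), with the array number given by the symbol and the mean and SD in black. Mutant array 2 (square) is the lowest mutant array in each panel. Cdc20 is the gene of the 6 in which the genotypes do not overlap.

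Genes for spindle assembly and microtubule binding had 3 of 5 above 0, a median of 0.0064 and 0 called. Dlgap5, which stabilises the microtubules of the spindle, read 11.00, 10.75, 11.22 and 10.93 in the mutant arrays, against 10.66, 10.83, 10.49 and 10.91 in the wild type arrays, a difference of 0.26 (limma adjusted p = 0.320). Prc1, which bundles the midzone microtubules, read 12.80, 12.68, 13.04 and 12.89 in the mutant arrays, against 12.78, 13.01, 12.92 and 13.01 in the wild type arrays, a difference of -0.08 with overlapping groups. Tpx2, an activator of Aurka, differed by -0.02, Nusap1, which binds spindle microtubules, by 0.0064 and Hmmr, which does so at the poles, by 0.05. A further Nusap1 probe set of lower intensity was at 8.43 in mutant and 9.13 in wild type arrays. Its difference was -0.70, so the value of Nusap1 depends on the probe set.

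Of the cytokinesis genes 1 of 3 was above 0, with a median of -0.0080 and 0 called. Racgap1, a subunit of the midzone complex centralspindlin, read 11.83, 11.56, 12.00 and 11.78 in the mutant arrays, against 11.51, 11.73, 11.60 and 11.78 in the wild type arrays, a difference of 0.13. Ect2, the exchange factor that switches on RhoA at the cell equator, read 12.09, 11.78, 12.19 and 12.06 in the mutant arrays, against 11.91, 12.20, 12.20 and 12.03 in the wild type arrays, a difference of -0.05. Anln, a scaffold of the contractile ring, differed by -0.0080, and the groups overlapped in all 3.

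Genes of anaphase and of the proteolysis that ends mitosis had 4 of 4 above 0, a median of 0.18 and 0 called. Cdc20, the activator that directs the anaphase-promoting complex to its first substrates, read 12.83, 12.59, 12.95 and 12.76 in the mutant arrays, against 12.58, 12.53, 12.52 and 12.58 in the wild type arrays. Every mutant array was above every wild type array, although mutant array 2 exceeded the highest wild type array by less than the spread of the wild type group. The difference was 0.23 ± 0.084 (SE; limma adjusted p = 0.233), and the 2 other probe sets of Cdc20 differed by 0.28 and 0.21. Espl1, the protease separase that opens cohesin, read 10.63, 10.14, 10.55 and 10.31 in the mutant arrays, against 9.85, 10.35, 10.14 and 10.38 in the wild type arrays, a difference of 0.23 with overlapping groups. Cdca3 differed by 0.14 and Ube2c, the ubiquitin-conjugating enzyme of the complex, by 0.06.

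The genes most often read as a measure of proliferation lay near 0. Mki67, which encodes the Ki-67 antigen of cycling cells, read 13.80, 13.40, 13.82 and 13.68 in the mutant arrays, against 13.60, 13.66, 13.63 and 13.74 in the wild type arrays, a difference of 0.01 ± 0.099 (SE; limma adjusted p = 0.956) with a 95% interval from -0.21 to 0.24. Top2a, the topoisomerase that untangles sister chromosomes, read 13.85, 13.58, 13.87 and 13.65 in the mutant arrays, against 13.71, 13.78, 13.82 and 13.86 in the wild type arrays, a difference of -0.06 with a 95% interval from -0.25 to 0.14. In both genes mutant array 2 was the lowest of all 8 arrays. Foxm1, the transcription factor that activates late cell cycle genes, read 10.38, 9.91, 10.40 and 10.29 in the mutant arrays, against 9.93, 10.03, 9.73 and 10.28 in the wild type arrays, a difference of 0.25 (limma adjusted p = 0.388). The Foxm1 groups overlapped through mutant array 2.

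The differences of 0.2 and above belonged to 10 genes, and 22 of the 44 lay between -0.1 and 0.1. Besides the probe sets chosen, the mitosis genes had 55 others, of which 47 had a genotype mean above 5.37. Of the 47, 30 had the sign of the chosen probe set, and mutant array 2 was the lowest mutant array in 34. Members with TTTGAA in a promoter had a median difference of 0.07 (n = 28) and listed members without it 0.09 (n = 8), and mutant array 2 was the lowest mutant array in each of these 36. Over the 874 other measured genes with both TTTGAA and CCAAT in a promoter the median difference was 0.06, and mutant array 2 was the lowest mutant array for 31% of them, against 26.8% of all 14416 other genes with a listed promoter.

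Other genes of the pathway were also low in mutant array 2. Of 72 further mitosis genes, 61 were above 0 with a median of 0.15, 0 were called by limma, 7 had an unadjusted p under 0.05 (all higher, a smaller share than the 11.9% of all genes), and mutant array 2 was the lowest mutant array for 64. The smallest p among them belonged to the centromere genes Cenpw (0.37 ± 0.092, SE; limma adjusted p = 0.136) and Cenpu (0.31) and the spindle gene Tacc3 (0.30). With probe sets averaged Cenpu differed by 0.19, and without probe sets named _s_at, _x_at or _a_at Tacc3 differed by 0.18. DNA replication and G1/S genes had 29 of 35 above 0, a median of 0.10 and 0 called by limma. Of the 35, 2 were higher at an unadjusted p under 0.05, against 11.9% of all genes. Mutant array 2 was the lowest mutant array for 29. Ccne1, the cyclin of entry into S phase, differed by 0.38 (limma adjusted p = 0.134), the chromatin assembly gene Chaf1b by 0.30 and the origin recognition gene Orc6 by 0.18.

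The anaphase-promoting complex is the ubiquitin ligase that ends mitosis. Of 15 genes for its subunits and its activator Fzr1, 13 were above 0, with a median of 0.10 and 0 called by limma. At an unadjusted p under 0.05 there was 1 in each direction (11.9% of all genes higher and 5.23% lower). Mutant arrays were all below wild type arrays for 2 of the 15 (3.33% of all genes) and all above for 1 (6.82%). Mutant array 2 was the lowest mutant array for 6. Cdc23, a subunit, differed by -0.45 ± 0.099 (SE; limma adjusted p = 0.106) with all mutant arrays below all wild type arrays, Cdc27, also a subunit, by -0.14 and Fzr1, which acts from late mitosis into G1, by 0.23. The Cdc23 value rested on 1 probe set: it was -0.068 without probe sets named _s_at, _x_at or _a_at (limma adjusted p = 0.820), and averaging its probe sets gave -0.10. Regulators of mitotic transcription were 9 of 23 above 0, with a median of -0.02 and 0 called by limma. Of the 23, 5 were lower at an unadjusted p under 0.05, against 5.23% of all genes. In 3 of the 23 the mutant arrays were all below the wild type arrays (3.33% of all genes), and in 1 all above (6.82%). Rbl2, the pocket protein that represses cell cycle genes in resting cells, differed by -0.42 ± 0.11 (SE; limma adjusted p = 0.138), with 11.05, 11.35, 11.39 and 10.93 in the mutant arrays, all below 11.55, 11.62, 11.63 and 11.59 in the wild type arrays. Lin52, a subunit of MuvB, differed by -0.51 (limma adjusted p = 0.138) and Nfya, a subunit of NF-Y, by -0.15, both without overlap. With probe sets averaged Lin52 differed by -0.089 (limma adjusted p = 0.623) and Nfya by -0.074. Genes of quiescence and Cdk inhibitors had 6 of 13 above 0, a median of -0.12 and 0 called by limma. Of the 13, 2 were lower at an unadjusted p under 0.05, against 5.23% of all genes. Rbl2 is also in that list, with Ndn, a growth suppressor of stem cells, at -0.42 (-0.65 without probe sets named _s_at, _x_at or _a_at) and the antiproliferative gene Btg2 at 0.74.

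**Figure D4:**
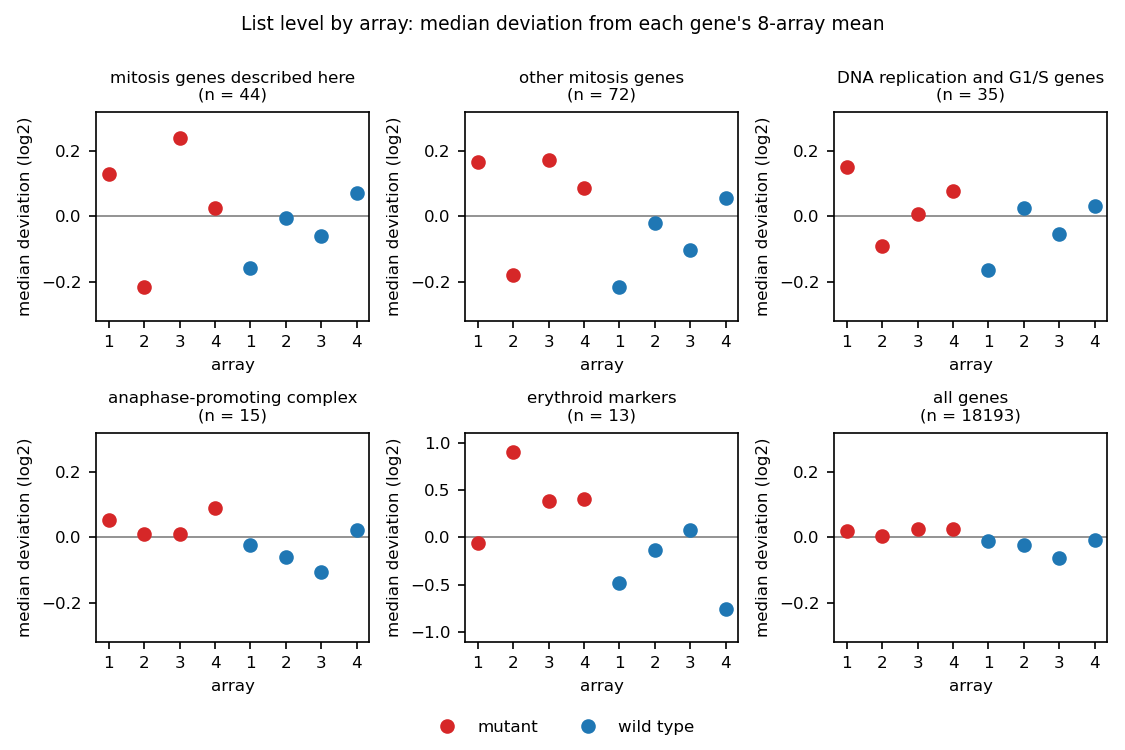
Level of 6 gene sets by array (mutant red, wild type blue), as the median over genes of the log2 intensity minus the mean of each gene over 8 arrays. The vertical axis of the erythroid panel is wider than the others. Mutant array 2 is at -0.22 for the 44 mitosis genes and at 0.90 for the erythroid markers.

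Markers of maturing cells moved with the arrays as well. Erythroid markers had 12 of 13 above 0, a median of 0.55, 0 called by limma and 6 higher at an unadjusted p under 0.05, against 11.9% of all genes. Their median level was -0.05, 0.90, 0.38 and 0.41 in mutant arrays 1 to 4. In wild type arrays 1 to 4 it was -0.48, -0.13, 0.08 and -0.75. Mutant array 2, the array lowest for mitosis genes, was thus the highest for erythroid markers. It was also the highest for macrophage and dendritic cell markers (0.49) and for megakaryocyte and platelet markers (0.44). It was not the highest for granulocyte and monocyte markers (0.05) or lymphoid markers (0.13). Slc4a1, the red cell anion exchanger, read 9.10, 10.85, 8.34 and 10.13 in the mutant arrays, against 6.96, 7.16, 8.12 and 6.90 in the wild type arrays (limma adjusted p = 0.105), a difference of 2.32, or 1.47 with probe sets averaged. Hbb-b2, a beta globin gene, differed by 1.67 and Alas2, of haem synthesis, by 1.52. Without mutant array 3 Alas2 was called, with a difference of 2.02 (limma adjusted p = 0.0357). Mutant array 3 was the lowest mutant array for Alas2, at 5.56, so leaving it out raises the mutant mean by construction and is not support for a difference. The wild type arrays gave 5.34 to 5.86 for Alas2, within the range of absent transcripts. Macrophage and dendritic cell markers had 12 of 12 above 0 (median 0.62), with 8 higher at an unadjusted p under 0.05. Megakaryocyte and platelet markers had 8 of 8 above 0 (median 0.40), with 3 higher at an unadjusted p under 0.05. Granulocyte and monocyte markers had 7 of 9 above 0 (median 0.24), with 1 higher and 1 lower at an unadjusted p under 0.05, and lymphoid markers 5 of 9 (median 0.0019), with 1 higher. The shares of all genes at an unadjusted p under 0.05 were 11.9% higher and 5.23% lower. Limma called 0 genes in each of these 4 lists. Mean log2 intensity ranged from 8.89 to 10.06 in mutant and from 8.27 to 9.16 in wild type arrays for the erythroid markers, and from 9.47 to 9.97 in mutant and from 8.82 to 9.41 in wild type arrays for the macrophage and dendritic cell markers. Cd3g, a subunit of the T cell receptor complex, averaged 5.86 in mutant and 5.48 in wild type arrays, within the range of absent transcripts. Igll1, the lymphoid marker counted as higher, averaged 6.29 in mutant and 5.93 in wild type arrays, also within that range. Whether these cells have a part in the order of the mitosis genes was not tested.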

How the data were processed

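RNA of LSK cells from 8 mice was measured on Affymetrix mouse arrays. The deposited values are log2 intensities. The submitters' processing notes name RMA, which corrects background, quantile-normalises and summarises the probes of a probe set, with affy in R 2.11.0. Because RMA forces one distribution on all arrays, a shift shared by most transcripts cannot be detected. No scanner files or scan dates were used here.

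Of 45101 probe sets, 64 controls were left out, and 34945 had a single gene symbol in the platform annotation, 932 had several and 9160 were not named. Each of the 18193 genes was represented by its probe set with the highest mean over 8 arrays. Limma 3.58.1 (lmFit and eBayes, R 4.3.3) tested mutant minus wild type, in a two-sided test, and p-values were adjusted over all genes (Benjamini-Hochberg) at 0.05. The scripts were tested on simulated data. Groups came from the labels, with 4 mice each.

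The mitosis genes and all gene lists were chosen with earlier results of these data known. Values in every array are given for the 2 members of each role with the smallest unadjusted p and for Mki67, Top2a and Cdk1, and up to 3 members of each other list are named. Alternative settings were median centring, a block for replicate number, a filter on dim genes at 7.11, probe sets averaged or restricted by name, a trended robust prior, array weights, sex as a covariate, a threshold of 0.1 and each array left out. Male arrays alone were added after seeing the data. The other probe sets of Bub1, Ccna2, Cenpa, Cenpk, Cdc20, Kif20b, Kif2c and Nusap1 were chosen after their values were seen. So were the levels of Slc4a1, Alas2 and Rbl2 by array.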

Additional observations from a re-analysis of the deposited data

Results flagged for a closer look

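Among 88 groups of 4 arrays, a genotype of each mitosis gene, 7 held an array that stood apart by Dixon's criterion, a gap to the nearest array that takes up most of the range. Chance sets an array apart in about 1 of 20 such groups, and these groups share arrays. Mutant array 2 was low in 4 of them. For Cdk1 it read 12.92, against 13.24 to 13.28 in the other mutant arrays, and for Aurkb 11.75, against 12.20 to 12.23. For Nuf2 it read 11.67, against 12.20 to 12.28, and for Kif20a 11.45, against 11.94 to 12.04. Mutant array 3 was high for Cenpa, at 12.50 against 12.01 to 12.05 in the other mutant arrays. Wild type array 4 was high for Cenpe, at 11.25 against 10.96 to 11.00 in the other wild type arrays, and for Kif20a, at 11.72 against 11.46 to 11.50.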

How the results depend on the processing

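No mitosis gene was called under any of the 17 alternatives that give each gene a value, and the smallest adjusted p in limma was 0.101. Over all genes, 30 were called, against 199 at a threshold of 0.1, 49 with probe sets averaged, 60 with sex as a covariate, 75 with a trended robust prior and 13 to 40 with an array left out (leaving out mutant array 1 gave 19, mutant array 2 gave 16, mutant array 4 gave 14, wild type array 2 gave 13 and wild type array 3 gave 16). Median centring called 21 higher and 19 lower, against 19 and 11 as deposited. With the replicate number as a block 8 genes were called (4 higher and 4 lower). Same-numbered arrays did not deviate together over all genes (correlations of -0.02, -0.22, -0.06 and 0.10). Only mutant array 4 correlated most with the wild type array of its own number. The labels state no pairing, and whether the mice were paired cannot be told from these values.

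Mitosis genes above 0 numbered 34, and 21 among male arrays alone. Genes that did not overlap numbered 1 (6.82% of all genes higher and 3.33% lower). Male arrays alone gave 2 higher and 6 lower, 8 together (24.4% of all genes higher and 14.2% lower). The number was 0 after centring, 0 with probe sets averaged and 1 to 13 with an array left out. Leaving out mutant array 2 gave 13, all higher (11.7% of all genes higher and 5.02% lower). Leaving out wild type array 2 gave 3, and mutant array 1 or wild type array 4 gave 2. For the other settings the share of all genes was not counted. Groups of fewer arrays fail to overlap more often, so these counts are not results about the mitosis genes.

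The sign turned in 68 of 740 pairs of a mitosis gene and an alternative, for 24 genes, and the cause was not tested. Kit, which defined the sort, is listed with them below but is not among the 24. Male arrays alone gave Birc5 -0.0044, Bub1b -0.094, Cdk1 -0.012, Cenpe -0.081, Cenpf -0.19, Incenp -0.036, Kif23 -0.036, Kif2c -0.011, Kif4 -0.011, Kit -0.011, Mki67 -0.061, Nusap1 -0.097, Plk4 -0.11 and Ube2c -0.012. Centring gave Bub1b -0.0092, Cenpf -0.013, Incenp -0.0070, Mki67 -0.0038 and Nusap1 -0.011. Probe sets averaged gave Anln 0.17, Bub1 -0.31, Cenpa -0.025, Cenpe -0.090, Cenpf -0.15, Nusap1 -0.35, Top2a 0.012, Tpx2 0.14 and Ttk -0.046. Leaving out probe sets with names in _s_at, _x_at or _a_at gave Cenpa -0.22 and Kif11 0.19. Sex as a covariate gave Cenpf -0.016. Array weights gave Nusap1 -0.0022. With an array left out the difference ranged from -0.11 to 0.10 for Anln, -0.050 to 0.097 for Bub1b, -0.013 to 0.24 for Cenpe, -0.081 to 0.12 for Cenpf, -0.14 to 0.029 for Cenpk, -0.11 to 0.031 for Ect2, -0.050 to 0.14 for Hmmr, -0.036 to 0.045 for Incenp, -0.17 to 0.045 for Kif11, -0.15 to 0.050 for Kif20b, -0.030 to 0.16 for Kif4, -0.021 to 0.079 for Kit, -0.035 to 0.10 for Mki67, -0.057 to 0.067 for Nusap1, -0.048 to 0.088 for Plk4, -0.084 to 0.054 for Tpx2 and -0.0014 to 0.13 for Ube2c.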
